A study of Mus musculus with 6 samples.

Results

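The genes described here are 40 genes of the type I interferon response, 4 of them Ifitm genes, out of 16749 genes listed in the 6 libraries. They were taken by symbol and read through their NCBI gene numbers, and all 40 were listed in every library. RNA-seq was made from flow-sorted CD8+ T cells of C57BL/6 mice, from the tissue that the submitters call iLN. The Id2 knockout group was 3 libraries from mice with the genotype Cd4creId2f/f, and the WT group was 3 libraries from Id2f/f mice without Cre. Per the series title the mice of both groups were tumor-bearing and treated with oxaliplatin, a platinum-based chemotherapy. Floxed Id2 was therefore present in both groups and Cre only in the knockout, so an effect of Cre cannot be told apart from that of losing Id2. Cd4-Cre acts from the thymus onward and deletes in CD8 as well as CD4 T cells. Ages are not in the labels, nor is whether the samples of a group came from separate animals, so every p-value reflects only how far these samples differ, and that variation could be technical.

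Type I interferons signal through the receptor IFNAR and the kinases JAK1 and TYK2 to a transcription factor complex that holds STAT2 and IRF9. That complex binds the interferon-stimulated response element in the promoters of its target genes, most of which encode antiviral proteins. In CD8 T cells these cytokines act during priming, and the IFITM proteins are membrane proteins that hinder the entry of enveloped viruses.

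Promoter stretches are shown for some of the genes where that element was found and for some called genes where it was not, although no binding was measured. The windows are those of RefSeq on GRCm38.p6 (mm10), 250 bases before to 50 after an annotated start, and 31 of the 40 genes had one. A gene can have more than 1 such start, with 32851 windows for 27025 genes. The stretches of Ifit3, Ifit3b, Ifitm1, Ifitm2 and Cmpk2 therefore lie inside the full span of their gene and not before its outer end. The core of the element, GAAA, then NN, then GAAA without a gap, was sought on both strands, overlapping matches included, and capitals mark it. On the other strand it reads as a pair of TTTC blocks. Stretches of Ifit1, Ifit3, Ifit3b, Isg15, Bst2 and Ifitm2 give the matches with 20 bases on each side. For Ifitm3, whose matches lie after its start, the first 30 transcribed bases are given. For Ifitm1 and Cmpk2, which had no match in their windows, the 60 bases before an annotated start are given. Lgals3bp, also called, likewise had no match and is not shown.
Ifit1 (chr19:34640765-34640833, plus strand): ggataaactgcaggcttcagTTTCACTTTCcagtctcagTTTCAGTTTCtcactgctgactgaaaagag
Ifit3 (chr19:34583353-34583436, plus strand): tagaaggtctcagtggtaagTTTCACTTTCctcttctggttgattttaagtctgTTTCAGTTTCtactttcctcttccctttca
Ifit3b (chr19:34607749-34607832, plus strand): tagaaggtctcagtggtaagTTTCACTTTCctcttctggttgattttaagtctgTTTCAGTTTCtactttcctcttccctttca
Isg15 (chr4:156200855-156200916, minus strand): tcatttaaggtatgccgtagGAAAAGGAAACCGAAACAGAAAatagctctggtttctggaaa
Bst2 (chr8:71537567-71537622, minus strand): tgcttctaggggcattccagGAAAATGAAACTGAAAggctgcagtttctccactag
Ifitm2 (chr7:140955978-140956027, minus strand): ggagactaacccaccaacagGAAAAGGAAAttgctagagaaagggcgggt
Ifitm3 (chr7:141010715-141010744, minus strand): agGAAAAGGAAActtctgaGAAACCGAAAc
Ifitm1 (chr7:140968016-140968075, plus strand): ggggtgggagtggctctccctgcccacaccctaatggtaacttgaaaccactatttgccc
Cmpk2 (chr12:26469155-26469214, plus strand): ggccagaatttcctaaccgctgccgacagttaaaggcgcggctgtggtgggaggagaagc
The stretches of Ifit3 and Ifit3b were the same letter for letter, and Isg15 held 3 overlapping matches in a row. A match was present for 14 of the 31 genes (45.2%), against 1079 of the 27025 genes with a window (3.99%). Median log2 fold changes of knockout over WT were -0.51 for the 14 genes with a match and -0.32 for the other 17 genes. Of the sites that E proteins, the partners of Id2, favour, CAGCTG was found for 6 genes (19.4%) and CAGGTG for 9 (29.0%), against 18.3% and 22.6% of all genes. Median log2 fold changes were -1.07 for the 6 genes with CAGCTG and -0.35 for the other 25. Those 6 were Ifitm3, Cmpk2, Ifit3b, Ifit3, Irf9 and Stat2. The median was set by the near-identical copies Ifit3 and Ifit3b, at -1.03 and -1.12, while Irf9 and Stat2 were at 0.07 and 0.01. For CAGGTG the medians were -0.35 for the 9 genes with it and -0.39 for the other 22. Whether any of these sites bears on the fold changes was not tested. These matches are descriptions of letters and say nothing of occupancy.

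Levels are in FPKM, a fragment count scaled by transcript length and library depth, and means are given ± SD over the 3 libraries of a group. Fold changes are knockout over WT from edgeR's quasi-likelihood test on the rounded expected counts of 10890 genes. A gene is said to have risen or fallen where the p-value adjusted over all of these genes was under 0.05. The libraries held between 7699181 and 8495123 expected counts. Id2 was at 1.67, 2.64 and 2.12 FPKM in the knockout libraries and at 370.98, 146.76 and 149.01 FPKM in WT (log2 fold change -6.72, adjusted p = 8.47e-05). The sorted cells held Cd8a at 196.14 to 231.77 FPKM in knockout and at 199.92 to 221.29 FPKM in WT, with Cd4 at no more than 2.12 FPKM in knockout and 2.97 FPKM in WT. The 8 listed CD8 T cell markers summed to 4471, 3316 and 4183 FPKM in knockout replicates 1 to 3. In WT replicates 1 to 3 the sums were 4087, 3616 and 3506 FPKM, so that knockout replicate 2 had the lowest sum. Of these 8 markers 0 fell and 0 rose, beside 8.77% and 3.14% of all genes. B cell transcripts varied between libraries, with values given beside the results they touch, and fewer cells of a type cannot be told apart from less RNA per cell in these bulk samples.

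Ifitm1, Ifitm2 and Ifitm3 were 7.21-fold to 14.2-fold lower in knockout cells, while many of the classic interferon-stimulated genes were lower in knockout replicates 1 and 3 and within or above the WT range in knockout replicate 2. Of the 40 genes, 6 fell and 0 rose, against 8.77% of all tested genes that fell and 3.14% that rose. The 6 were Ifitm1, Ifitm2, Ifitm3, Cmpk2, Bst2 and Lgals3bp. At an unadjusted p under 0.05, 2 genes were higher, Eif2ak2 and Ifitm10 (11.5% of all genes), and DESeq2 and limma likewise found 0 higher at an adjusted p under 0.05. The median log2 fold change of the 40 was -0.37, beside 0.01 for all genes tested, and 33 of them were below 0, as were 48.1% of all genes. All 40 genes passed the filter on low levels, and 37 reached 1 FPKM in each of the 6 libraries. The others were Rsad2, Ifi44 and Ifitm3, each under 1 FPKM in at least 1 knockout library.

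Ifitm1, Ifitm2 and Ifitm3 lie next to each other on mm10 chromosome 7, Ifitm2 from 140954837 to 140959686, Ifitm1 from 140967429 to 140969827 and Ifitm3 from 141009590 to 141010744. Ifitm1, whose product acts mainly at the cell surface, was at 7.55, 40.69 and 9.7 FPKM in knockout replicates 1 to 3 and at 393.62, 107.82 and 294.63 FPKM in WT replicates 1 to 3. It had the largest WT mean of the 40 genes, 265 ± 145 FPKM, and its log2 fold change was -3.83 (SE 0.613, adjusted p = 0.00321, edgeR). Every knockout library stood below every WT library, and WT replicate 2 was the lowest of its group. Ifitm2 was at 5.58, 22.41 and 6.13 FPKM in knockout and at 156.26, 83.42 and 203.19 FPKM in WT, with its log2 fold change at -3.73 (SE 0.476, adjusted p = 0.000887, edgeR). Its groups were likewise apart, with knockout replicate 2 nearest to WT. Ifitm3, which in mice and humans restricts influenza virus from endosomes, was at 1.94, 12.61 and 0.99 FPKM in knockout and at 30.05, 47.18 and 34.41 FPKM in WT. Its log2 fold change was -2.85 (SE 0.605, adjusted p = 0.0135, edgeR). Here WT replicate 2 was the highest of its group, unlike in Ifitm1 and Ifitm2.

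The size of these falls moved with knockout replicate 2. WT exceeded knockout 14.2-fold for Ifitm1, 13.2-fold for Ifitm2 and 7.21-fold for Ifitm3 over all libraries, and 30.5-fold, 24.7-fold and 23.8-fold without knockout replicate 2. Ifitm3 lost its call without knockout replicate 1 (log2 fold change -2.46, adjusted p = 0.0556, edgeR). The 3 genes resemble each other in sequence, and the division of shared reads between them is an estimate. Ifitm10, a distant relative on the same chromosome from 142325835 to 142373779, was at 6.22, 3.79 and 4.2 FPKM in knockout and at 3.22, 3.07 and 2.77 FPKM in WT. Each knockout library was above each WT library, as for 15.3% of all genes, but the difference did not pass (log2 fold change 0.64, SE 0.237, adjusted p = 0.114, edgeR). Ifitm5 and Ifitm7 stayed at or below 0.34 FPKM in all libraries.

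**Figure D1:**
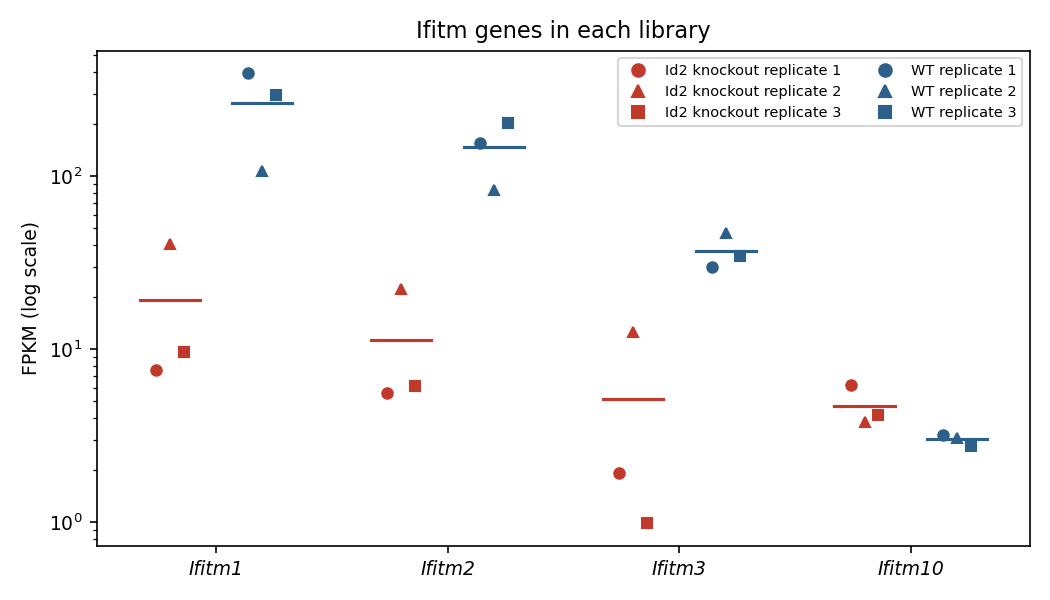
FPKM of the 4 Ifitm genes on a log axis, 1 point per library, knockout in red left of WT in blue, with the group mean as a line and the replicate number as the marker shape. Ifitm1, Ifitm2 and Ifitm3 were lower in every knockout library than in any WT library, with knockout replicate 2 the highest of the 3, and Ifitm10 was between 2.77 and 6.22 FPKM throughout.

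Knockout replicate 2 was the highest of the 3 knockout libraries in 35 of the 40 genes, against 46.2% of all tested genes. In 32 of the 40, knockout replicates 1 and 3 were both below every WT library, against 24.3% of all genes. In 18 of these 32, knockout replicate 2 was at or above the lowest WT library, a pattern held by 7.52% of all genes. All knockout libraries were below all WT libraries in 14 genes (16.8% of all genes). Without knockout replicate 2, 24 of the 40 genes fell, against 9.94% of all genes, with a median log2 fold change of -0.58 beside 0.01 for all genes. Those 24 held the 6 genes called over all libraries. Other fits moved the count too. DESeq2 called 11 of the 40 lower and 0 higher (9.82% and 4.54% of all genes), the fit without a filter 11 and 0 (6.72% and 2.57%) and the replicate block 11 and 0 (8.15% and 2.71%). Limma called 7 lower and 0 higher with a pseudocount of 1 (7.92% and 2.66%) or of 0.1 (7.64% and 2.51%). Without WT replicate 1 or 2 the count was 5 (7.37% and 7.7% of all genes), and without WT replicate 3 it was 6 (5.18%). None of the 40 rose in edgeR without WT replicate 2 or 3 or without knockout replicate 1, where 1.93%, 1.11% and 1.96% of all genes did. At an unadjusted p under 0.05 edgeR put 17 of the 40 lower, against 16.1% of all genes. At an adjusted p under 0.05, 3 genes fell without knockout replicate 1, Ifitm1, Ifitm2 and Cmpk2, against 6.32% of all genes, and the median log2 fold change was -0.30. Without knockout replicate 3, those 3 and Ifitm3 fell, against 4.75% of all genes, and the median was -0.23. Replicate 2 was singled out after its values were seen.

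**Figure D2:**
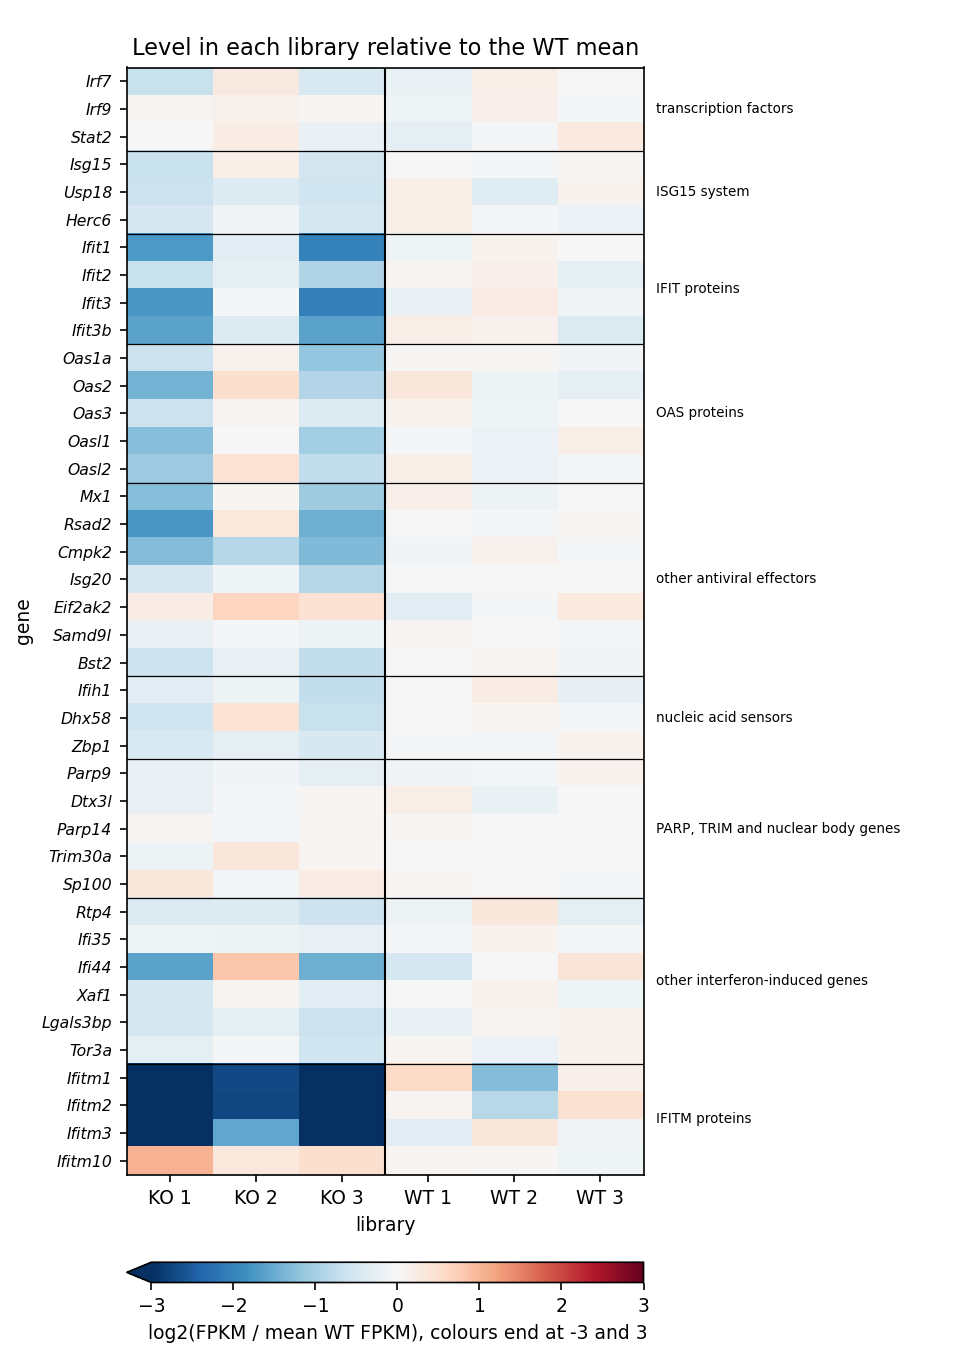
Level of each of the 40 genes in each library as log2 of its FPKM over the mean WT FPKM, with knockout libraries left of WT libraries and genes grouped by role. Blue is below and red above the WT mean, colours end at -3 and 3, and the IFIT, OAS, Mx1, Rsad2 and Ifi44 rows are lower in knockout replicates 1 and 3 than in knockout replicate 2, where they run from -0.41 for Ifit3b to 0.83 for Ifi44.

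The IFIT genes encode proteins that bind viral RNA and block its translation, and they stand side by side on chromosome 19. Ifit1 (34640889 to 34650009) was at 4.54, 11.87 and 3.67 FPKM in knockout and at 13.62, 15.94 and 15.13 FPKM in WT, a log2 fold change of -1.18 that just missed the threshold (SE 0.339, adjusted p = 0.0501, edgeR). Ifit3 (34583119 to 34588982) was at 11.49, 36.86 and 9.21 FPKM in knockout and at 33.27, 45.29 and 36.54 FPKM in WT (log2 fold change -1.03, SE 0.404, adjusted p = 0.132, edgeR). Knockout replicates 1 and 3 were far below WT in these genes, and replicate 2 lay within the WT range for Ifit3. Ifit3b, a near-identical copy of Ifit3, was at 2.05, 4.71 and 2.06 FPKM in knockout and at 7.19, 6.83 and 4.74 FPKM in WT. Ifit2 was at 4.74, 6.22 and 4.04 FPKM in knockout and at 8.01, 8.4 and 6.3 FPKM in WT. Neither passed over all libraries in edgeR (adjusted p = 0.0602 and 0.0577), whereas DESeq2 called Ifit1, Ifit2 and Ifit3b lower. Without knockout replicate 2 all 4 fell, Ifit1 with a log2 fold change of -1.84, Ifit3 of -1.88, Ifit3b of -1.60 and Ifit2 of -0.78 (adjusted p = 0.000121, 0.000100, 0.00653 and 0.0224, edgeR). Without knockout replicate 1 or 3 the log2 fold changes were -0.96 and -0.88 for Ifit1 and -0.76 and -0.69 for Ifit3, and none of the 4 passed in edgeR. The division of shared reads between Ifit3 and Ifit3b is an estimate, so their values are not independent.

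The OAS genes encode enzymes that sense double-stranded RNA and start RNA decay through RNase L, and their relatives. None of the 5 passed over all libraries (0 by edgeR, DESeq2 or limma). Oas2 was at 2.72, 10.16 and 3.99 FPKM in knockout and at 9.32, 6.58 and 6.03 FPKM in WT, so that knockout replicate 2 was above every WT library. Oasl2, an OAS-like gene, was at 5.78, 16.48 and 7.42 FPKM in knockout and at 14.05, 11.02 and 12.03 FPKM in WT, with the same order. Oasl1, which in mice limits the translation of Irf7, was at 3, 7.14 and 3.57 FPKM in knockout and at 7, 6.35 and 8.31 FPKM in WT. Its knockout replicate 2 lay within the WT range. Oas1a was at 7.86, 13.6 and 5.49 FPKM in knockout and at 12.68, 12.76 and 11.62 FPKM in WT. Oas3 was at 18.62, 30.79 and 21.9 FPKM in knockout and at 31.36, 26.37 and 29.34 FPKM in WT. The log2 fold changes over all libraries were between -0.68 (Oasl1) and -0.31 (Oas3), and only that of Oasl1 had an unadjusted p under 0.05 (0.0442). Without knockout replicate 2 all 5 fell, with log2 fold changes of -1.13 for Oasl1, -1.12 for Oas2, -0.90 for Oasl2, -0.88 for Oas1a and -0.51 for Oas3. Without knockout replicate 1 or 3 none of the 5 passed in edgeR, and the values were nearer to 0, at -0.08 and -0.22 for Oas2 and -0.08 and -0.18 for Oasl2. Several OAS genes are close copies in a cluster on chromosome 5, so their share of reads is uncertain.

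**Figure D3:**
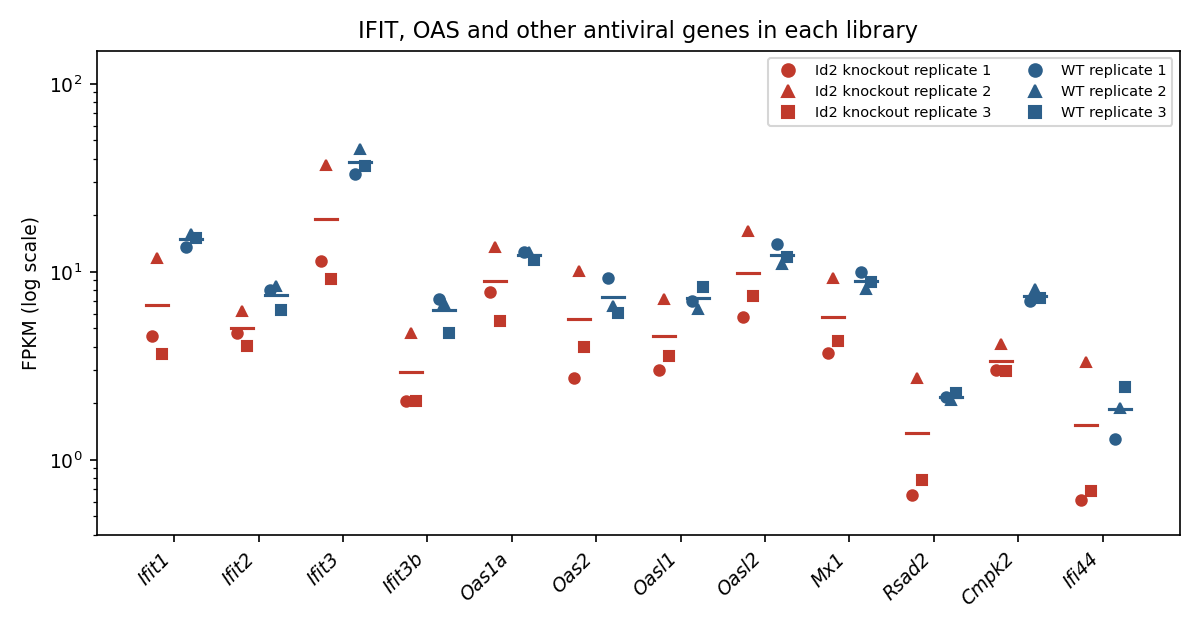
FPKM of 12 antiviral genes on a log axis, 1 point per library, knockout in red left of WT in blue, with the group mean as a line. Knockout replicates 1 and 3 (circle and square) were below every WT library in each gene, knockout replicate 2 (triangle) was at or above the lowest WT library in 8 of the 12, and Cmpk2 was at or below 4.13 FPKM in all knockout libraries.

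Among other antiviral effectors Cmpk2 and Bst2 fell. Cmpk2, a mitochondrial nucleotide kinase gene, was at 3.01, 4.13 and 2.98 FPKM in knockout and at 6.99, 8.09 and 7.24 FPKM in WT. Its log2 fold change was -1.16 (SE 0.175, adjusted p = 0.00232, edgeR), the groups did not overlap, and the call held without any 1 library. Rsad2, which encodes viperin and is the neighbour of Cmpk2 on chromosome 12, was at 0.65, 2.72 and 0.78 FPKM in knockout and at 2.15, 2.09 and 2.27 FPKM in WT, with knockout replicate 2 the highest of all libraries (log2 fold change -0.68, SE 0.452, adjusted p = 0.37, edgeR). Bst2, the gene of tetherin, which holds budding virions at the cell surface, was at 114.45, 152.72 and 107.75 FPKM in knockout and at 178.61, 190.15 and 169.92 FPKM in WT. Its log2 fold change was -0.54 (SE 0.126, adjusted p = 0.0205, edgeR). That call ended when WT replicate 1 or 2, or knockout replicate 1 or 3, was left out (adjusted p = 0.0586, 0.0629, 0.0842 and 0.119).

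Mx1, a dynamin-like antiviral GTPase gene, was at 3.7, 9.25 and 4.27 FPKM in knockout and at 9.96, 8.15 and 8.86 FPKM in WT (log2 fold change -0.68, SE 0.291, adjusted p = 0.162, edgeR). Isg20, an exonuclease gene, was at 22.91, 29.71 and 17.9 FPKM in knockout and at 32.32, 32.18 and 32.52 FPKM in WT (adjusted p = 0.123, edgeR). The knockout libraries of Isg20 were spread and lay below a narrow WT group. Without knockout replicate 2, Rsad2, Mx1 and Isg20 fell, with log2 fold changes of -1.59, -1.17 and -0.67. Without knockout replicate 1 or 3 the values were -0.34 and -0.39 for Rsad2 and -0.44 and -0.51 for Mx1. Eif2ak2, the gene of the RNA-activated kinase PKR, averaged 5.81 ± 0.825 FPKM in knockout and 4.25 ± 0.924 FPKM in WT, a log2 fold change of 0.43 that did not pass (adjusted p = 0.156, edgeR). Samd9l, a growth-restraining gene, averaged 18.6 ± 1.1 FPKM in knockout and 20.3 ± 0.687 FPKM in WT.

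The transcription factor genes of the pathway did not pass. Irf7, the factor that amplifies interferon production, was at 77.45, 148.14 and 89.37 FPKM in knockout and at 108, 138.33 and 123.14 FPKM in WT (log2 fold change -0.26, SE 0.197, adjusted p = 0.435, edgeR). Knockout replicate 2 was its highest library, and without it Irf7 fell (log2 fold change -0.56, adjusted p = 0.0135, edgeR), while its log2 fold changes were -0.08 and -0.16 when knockout replicate 1 or 3 was left out instead. Irf9 and Stat2 did not share this order. Irf9 averaged 96.8 ± 2.11 FPKM in knockout and 91.3 ± 9.13 FPKM in WT, with a 95% interval of its log2 fold change from -0.14 to 0.29. Stat2 averaged 16.6 ± 2.38 FPKM in knockout and 16.4 ± 3.31 FPKM in WT, with an interval from -0.32 to 0.34.

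Isg15 encodes a ubiquitin-like modifier, Herc6 the ligase that attaches it in mice and Usp18 the protease that removes it and also restrains the interferon receptor. Isg15 was at 20.04, 36.81 and 21.8 FPKM in knockout and at 31.48, 30.75 and 33.4 FPKM in WT (log2 fold change -0.30, adjusted p = 0.399, edgeR), and knockout replicate 2 was above every WT library. Herc6 was at 10.5, 13.85 and 10.23 FPKM in knockout and at 16.99, 14.28 and 13.17 FPKM in WT (log2 fold change -0.38, adjusted p = 0.123, edgeR). Both fell without knockout replicate 2 (log2 fold changes -0.60 and -0.51, adjusted p = 0.0422 for each), and without knockout replicate 1 or 3 Isg15 was at -0.15 and -0.18. Usp18 was at 16.7, 19.89 and 16.99 FPKM in knockout and at 29.93, 20 and 27.78 FPKM in WT (log2 fold change -0.56, SE 0.171, adjusted p = 0.0628, edgeR). In Usp18 it was WT replicate 2 that lay near the knockout libraries, and the gene fell without that library (adjusted p = 0.012, edgeR) and by DESeq2 over all libraries.

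Of the nucleic acid sensors, Dhx58, a regulator of RNA sensing, was at 9.03, 17.96 and 8.57 FPKM in knockout and at 13.54, 14.19 and 13.13 FPKM in WT (adjusted p = 0.594, edgeR). Zbp1, a sensor of left-handed nucleic acids that can start cell death, was at 73.15, 82.48 and 72.28 FPKM in knockout and at 97.92, 96.35 and 107.7 FPKM in WT (log2 fold change -0.31, SE 0.0983, adjusted p = 0.0706, edgeR). The groups of Zbp1 did not overlap, and those of Dhx58 did only through knockout replicate 2. Without that library both fell (log2 fold changes -0.62 for Dhx58, which was at -0.06 and -0.03 without knockout replicate 1 or 3, and -0.36 for Zbp1), and limma called Zbp1 lower over all libraries. Ifih1, the gene of the RNA sensor MDA5, averaged 3.88 ± 0.773 FPKM in knockout and 5.06 ± 0.786 FPKM in WT, which did not pass with or without that library (adjusted p = 0.182 and 0.113, edgeR).

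No call was made for Parp9, Dtx3l, Parp14, Trim30a or Sp100. Parp9 and Dtx3l encode partners in a ubiquitin ligase complex and Sp100 a protein of nuclear bodies. Their log2 fold changes lay between -0.21 for Parp9 and 0.17 for Sp100, and 0 of the 5 passed by edgeR, DESeq2 or limma, or in edgeR without any 1 library. At an unadjusted p under 0.05 edgeR also gave 0. Sp100 averaged 289 ± 39.5 FPKM in knockout and 255 ± 11.6 FPKM in WT, and Parp14 averaged 10.7 ± 0.466 FPKM in knockout and 10.4 ± 0.156 FPKM in WT.

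Of 6 further interferon-induced genes Lgals3bp, which encodes a secreted glycoprotein that binds galectin-3, fell. It was at 94.35, 111.38 and 86.92 FPKM in knockout and at 118.89, 142.91 and 145.2 FPKM in WT, with its log2 fold change at -0.49 (SE 0.112, adjusted p = 0.0189, edgeR). The groups did not overlap, but the call ended when WT replicate 2 or 3, or knockout replicate 1 or 3, was left out (adjusted p = 0.0569, 0.0787, 0.0693 and 0.12). Rtp4, a receptor transporter gene, was at 58.05, 59.84 and 50.7 FPKM in knockout and at 69.98, 98.7 and 64.35 FPKM in WT (log2 fold change -0.48, SE 0.15, adjusted p = 0.0673, edgeR). It fell without WT replicate 3 (adjusted p = 0.0452, edgeR) and by DESeq2 over all libraries. Ifi44 was at 0.61, 3.32 and 0.68 FPKM in knockout and at 1.29, 1.88 and 2.43 FPKM in WT, so that knockout replicate 2 was its highest library (log2 fold change -0.32, SE 0.569, adjusted p = 0.76, edgeR). Its log2 fold change was -1.55 without knockout replicate 2, where it passed (adjusted p = 0.0247), and 0.07 and 0.04 without knockout replicate 1 or 3. Ifi35, Xaf1 and Tor3a had log2 fold changes between -0.31 and -0.17 and did not pass in any of these fits.

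**Figure D4:**
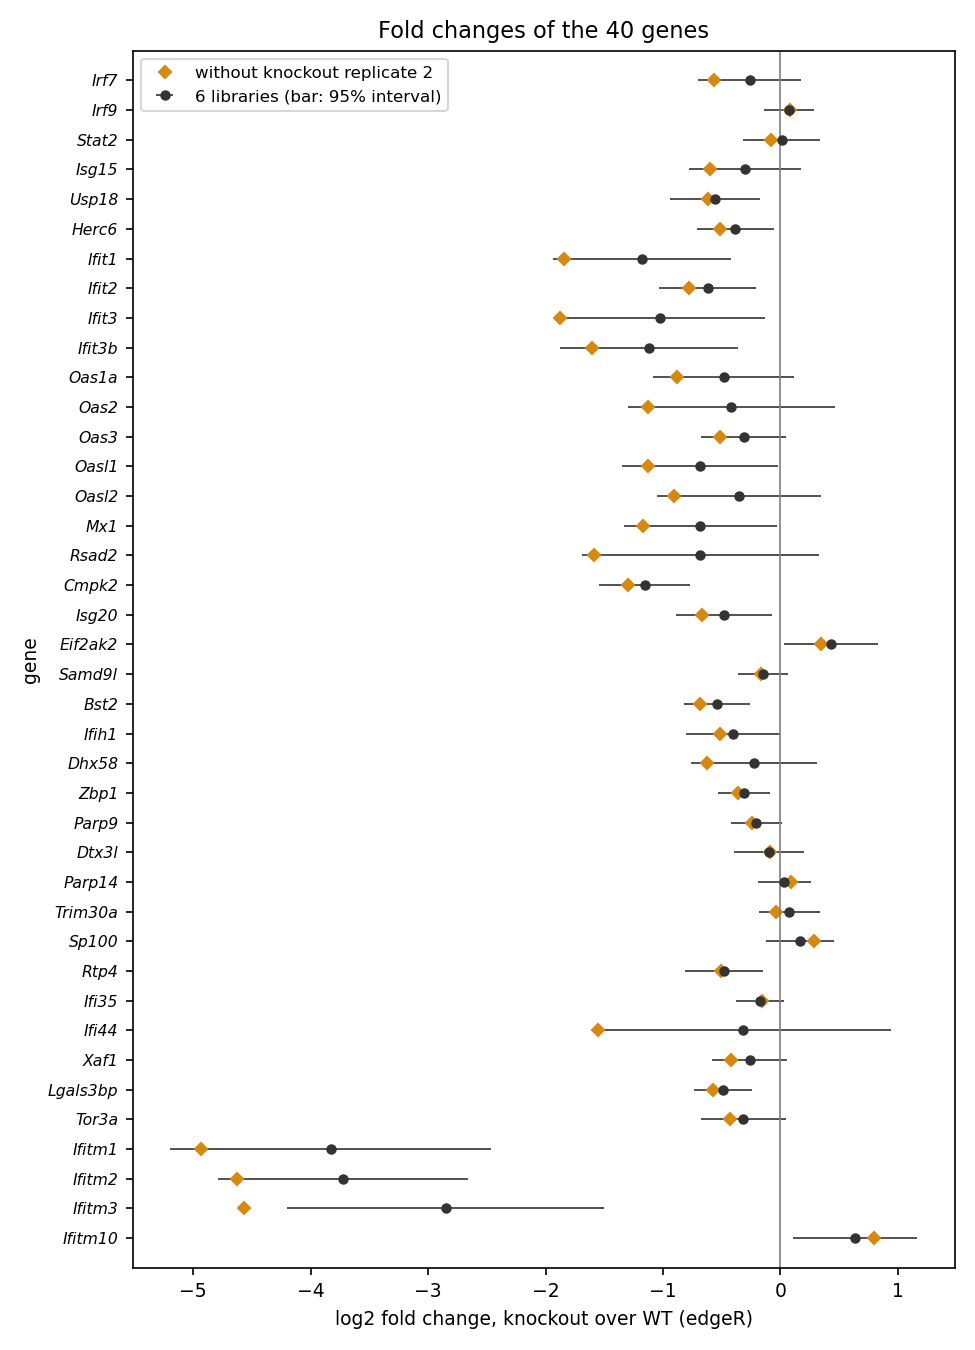
Log2 fold change of each of the 40 genes, knockout over WT, by edgeR over 6 libraries with its 95% interval (black) and without knockout replicate 2 (orange). Ifitm1, Ifitm2 and Ifitm3 stand far to the left, and the IFIT, OAS, Rsad2, Mx1 and Ifi44 values move left without that library, while the values of Irf9, Stat2 and the Parp genes stay near 0.

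B cell transcripts moved with knockout replicate 2. The summed level of 15 listed B cell markers was 707, 3032 and 636 FPKM in knockout replicates 1 to 3 and 957, 3194 and 3722 FPKM in WT replicates 1 to 3. Of 14 tested markers 0 passed by edgeR. The 4 IFIT genes summed to 22.8, 59.7 and 19 FPKM in knockout and to 62.1, 76.5 and 62.7 FPKM in WT. WT replicate 1 had the lowest B cell sum of its group, beside an IFIT sum of 62.1 FPKM. The 4 Ifitm genes summed to 21.3, 79.5 and 21 FPKM in knockout and to 583, 241 and 535 FPKM in WT. The largest part of the sum in WT replicate 1 was Ifitm1, at 393.62 FPKM. Ifitm2 was highest in WT replicate 3 (203.19 FPKM), and Ifitm3 was lowest of the WT group in replicate 1 (30.05 FPKM). The part of B cells in these values was not tested. When the B cell marker level entered the fit, 7 of the 40 genes fell and 0 rose, against 8.36% and 2.73% of all genes. They were the 6 called without it and Ifit1 (log2 fold change -0.92, adjusted p = 0.0333, edgeR), and the log2 fold changes of Ifitm1, Ifitm2 and Ifitm3 were -3.79, -3.55 and -2.52.

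**Figure D5:**
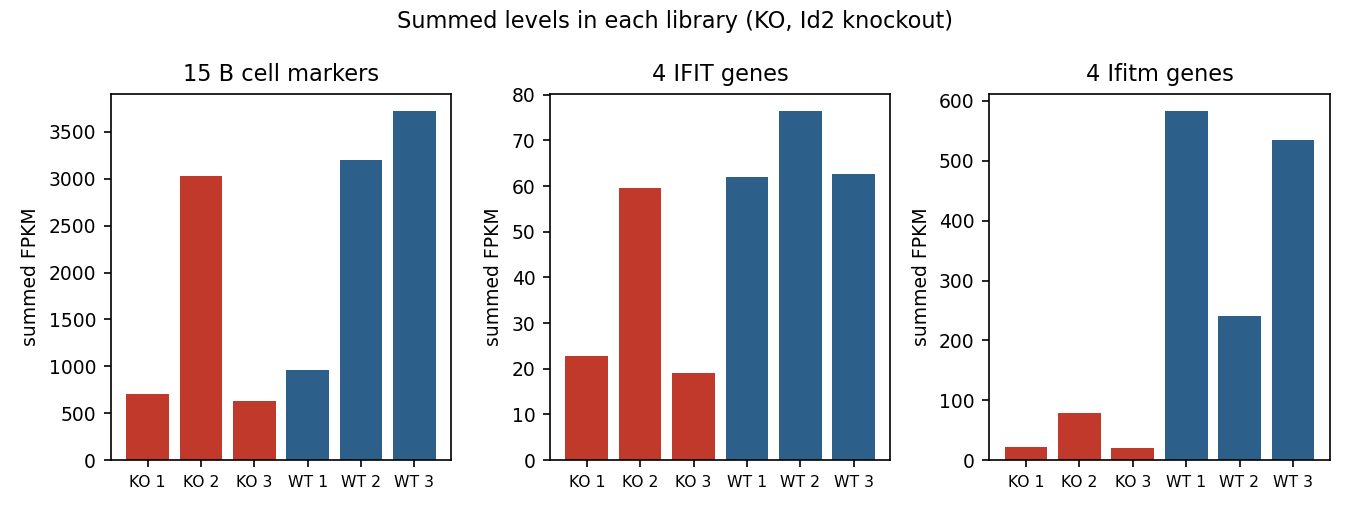
Summed FPKM per library of 15 B cell markers, the 4 IFIT genes and the 4 Ifitm genes, knockout in red left of WT in blue. Knockout replicate 2 is high in the first panel and near WT in the second, and WT replicate 1 is low in the first panel and at 62.1 and 583 FPKM in the others.

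Markers of other cells were read the same way. Of 14 dendritic cell markers 13 were listed, and they summed to between 198 and 254 FPKM in knockout and between 266 and 317 FPKM in WT, most of it Bst2, itself 1 of the 40 genes. Of 8 tested, 4 fell, Bst2 among them, and 0 rose (8.77% and 3.14% of all genes). Siglech, a defining marker of plasmacytoid dendritic cells, was at or below 0.7 FPKM in all libraries, as were the monocyte and macrophage genes Adgre1 and Cd14. Other markers of these lists were present and lower in each knockout library than in any WT library. Itgax was at 0.34 to 0.96 FPKM in knockout and 5.54 to 12.85 FPKM in WT, and Batf3 at 0 to 0.75 FPKM in knockout and 2.94 to 13.79 FPKM in WT. Zbtb46 was at 0.45 to 1.6 FPKM in knockout and 3.46 to 4.22 FPKM in WT, and Ccr2, which T cells can also express, at 3.31 to 7.29 FPKM in knockout and 22.83 to 42.65 FPKM in WT. Itgae and Ccr9, which CD8 T cells can also express, were higher in each knockout library, at 34.68 to 52.65 FPKM in knockout and 29.29 to 33.8 FPKM in WT for Itgae and at 16.3 to 22.93 FPKM in knockout and 12.61 to 15.5 FPKM in WT for Ccr9. Of 10 listed monocyte and macrophage markers the sum was 1493 to 1619 FPKM in knockout and 1338 to 1615 FPKM in WT, most of it Ly6c2, which CD8 T cells also express. Of 5 tested, 1 fell and 0 rose (8.77% and 3.14% of all genes). The 7 NK cell markers summed to between 35.5 and 82.2 FPKM in knockout and between 574 and 1305 FPKM in WT. Gzma, which effector T cells also express, made up 17.13 to 65.81 FPKM of the knockout sums and 559.57 to 1288.67 FPKM of the WT sums, and the NK cell receptor gene Ncr1 was at or below 0.18 FPKM. Of 4 NK cell markers tested, 1 fell and 0 rose (8.77% and 3.14% of all genes). The 8 CD4 and regulatory T cell markers summed to 96.3 to 102 FPKM in knockout and 76.9 to 101 FPKM in WT. Most of this was Ctla4, at 78.48 to 85.15 FPKM in knockout and 51.45 to 65.39 FPKM in WT. Il2ra was at 3.74 to 4.52 FPKM in knockout and 13.23 to 20.54 FPKM in WT. Of 7 tested, 1 fell and 2 rose (8.77% and 3.14% of all genes). The 9 stromal and endothelial markers summed to 43.3 to 48.3 FPKM in knockout and 37 to 45.9 FPKM in WT, most of it Pecam1. Of these, 7 were below 1 FPKM throughout, and of 2 tested 1 fell and 0 rose (8.77% and 3.14% of all genes). The part of these cells in the results was not tested.

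Of the genes that sense infection or carry the interferon signal, Ifng fell and Jak1 rose. Of 34 listed by name, 32 had counts and 30 were tested, of which 1 fell and 1 rose, shares of 3.33% each that lie below the 8.77% and near the 3.14% of all genes. Ifng, the gene of interferon gamma, fell, with 27.39, 22.68 and 23.7 FPKM in knockout and 137.82, 61.22 and 63.94 FPKM in WT (log2 fold change -1.86, adjusted p = 0.00383, edgeR). The receptor-bound kinase gene Jak1 rose, with 381.32, 339.31 and 367.81 FPKM in knockout and 284.12, 282.51 and 244.83 FPKM in WT (log2 fold change 0.41, SE 0.112, adjusted p = 0.0408, edgeR). The call of Jak1 ended when WT replicate 2 or 3, or knockout replicate 1 or 3, was left out (adjusted p = 0.0858, 0.14, 0.105 and 0.155).

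The receptor subunit gene Ifnar2 was at 23.18, 27.26 and 29 FPKM in knockout and at 18.7, 20.37 and 18.14 FPKM in WT, groups that did not overlap (log2 fold change 0.41, SE 0.122, adjusted p = 0.0589, edgeR), and limma called it higher. Its partner Ifnar1 averaged 49.6 ± 4.13 FPKM in knockout and 43.2 ± 1.73 FPKM in WT (adjusted p = 0.274, edgeR). Irf1, a factor induced by interferon gamma, averaged 231 ± 16.7 FPKM in knockout and 183 ± 58 FPKM in WT (adjusted p = 0.369, edgeR). Without WT replicate 1 Irf1 rose (adjusted p = 0.0192, edgeR) and 3 of the 30 genes were higher (2.82% of all genes). Without knockout replicate 2, 3 were higher and 2 lower (4.41% and 9.94% of all genes), and with WT replicate 2 or 3, or knockout replicate 1 or 3, left out, none passed upward in edgeR, with 3, 3, 4 and 2 at an unadjusted p under 0.05.

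A further list of 76 interferon-stimulated genes, 64 of them tested, was read beside the 40. Of these 9 fell (14.1%, beside 8.77% of all genes) and 2 rose (3.13%, beside 3.14% of all genes), with a median log2 fold change of -0.09, and knockout replicate 2 was the highest of the knockout libraries in 35 (54.7%, beside 46.2% of all genes). Epsti1, an interferon-induced gene with a role in hepatitis C virus restriction in human cells, was at 77.59, 74.06 and 72.45 FPKM in knockout and at 161.13, 139.08 and 176.39 FPKM in WT (log2 fold change -1.13, SE 0.115, adjusted p = 0.000334, edgeR). Its knockout libraries were close together, replicate 2 included. Phf11a and Phf11b, neighbouring PHD finger genes, fell by 0.95 and 0.74 on the log2 scale, with knockout replicate 2 the highest knockout library. Phf11a was at 17.89, 20.9 and 17.08 FPKM in knockout and at 37.05, 32.14 and 37.68 FPKM in WT.

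Ifi30, the gene of a lysosomal thiol reductase of antigen processing, fell (log2 fold change -1.34, adjusted p = 0.00686, edgeR), with 14.3, 27.44 and 17.11 FPKM in knockout and 42.21, 40.1 and 64.97 FPKM in WT. Ly6a, which encodes the surface protein Sca-1, was at 50.77, 122.93 and 56.95 FPKM in knockout and at 133.22, 247.21 and 266.51 FPKM in WT (log2 fold change -1.50, adjusted p = 0.0138, edgeR). The groups of both were apart, with knockout replicate 2 closest to WT. Of the membrane protein genes Ms4a4b and Ms4a4c the first fell and the second rose. Ms4a4b averaged 664 ± 27.7 FPKM in knockout and 963 ± 86.7 FPKM in WT (adjusted p = 0.00939, edgeR), and Ms4a4c 91.4 ± 7.89 FPKM in knockout and 65.8 ± 1.91 FPKM in WT (adjusted p = 0.0159, edgeR). The ubiquitin ligase gene Trim26 also rose, to 46.9 ± 1.37 FPKM in knockout, against 36.3 ± 1.59 FPKM in WT (adjusted p = 0.03, edgeR). Single libraries ended several of these calls. Ly6a lost its call without WT replicate 3 or knockout replicate 1 or 3 (adjusted p = 0.0661, 0.0604 and 0.0757), Ms4a4b without knockout replicate 3 (0.0673) and Ms4a4c without WT replicate 2 or 3 or knockout replicate 1 (0.0515, 0.0718 and 0.0557). Trim26 kept its call only without knockout replicate 2 (adjusted p = 0.0378, and 0.063 to 0.0975 in the other fits of 5 libraries). The count of genes that fell was 5 without WT replicate 3 or knockout replicate 1 (5.18% and 6.32% of all genes) and 4 without knockout replicate 3 (4.75%). The count that rose was 1 without knockout replicate 3 (0.771% of all genes) and 0 in edgeR once WT replicate 2 or 3 or knockout replicate 1 was left out, where 4, 5 and 6 were higher at an unadjusted p under 0.05. Ifit1bl1, Ifi211 and Samhd1 also fell over all libraries, and each kept its call in 2 of the 6 fits of 5 libraries.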

How the data were processed

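Total RNA of sorted CD8+ T cells was sequenced in 6 libraries, 3 knockout and 3 WT. CASAVA, Bowtie2, RSEM and the build mm10 appear in the submitters' processing notes, without versions or roles. The deposited tables give, per the file headers, an expected count and an FPKM value per gene. Between 25.0% and 26.2% of the expected counts of a library were not whole. The sources used here do not state whether counting used strand.

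Tables were joined by NCBI gene number, and a gene missing from a table was taken as 0. Symbols and positions came from the RefSeq table of GRCm38.p6, which named 16707 of 16749 genes. Expected counts were rounded and tested with edgeR 4.0.16 (TMM, quasi-likelihood, two-sided, R 4.3.3) on the 10890 genes that reached 1 FPKM in 3 or more libraries. Benjamini-Hochberg adjusted p-values under 0.05 were called. Of the fits, only the main one by edgeR was also run on simulated counts. Within a group no library repeated another: chi-square over degrees of freedom lay between 5.62 and 18.6.

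The genes and lists were chosen with earlier results of these data known. Of the 40 genes, values of every library are given for those that pass in all libraries or without any 1 of them and for the Ifitm genes. Of the further lists, up to 6 genes per direction with the smallest p are named, with Ifnar1, Ifnar2 and Irf1, and 1 further gene of that rule is not reported here. Other genes were named after their values were seen. Rigi was matched under its older symbol. The fit was repeated with DESeq2 1.42.0, with limma 3.58.1 on log2(FPKM + 1) or log2(FPKM + 0.1), with DESeq2 size factors, unfiltered, at a minimum FPKM of 5, with replicate number as block, with B cell marker level as covariate and with each library left out. Tables were read with pandas 2.3.3 in Python 3.11.15.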

Additional observations from a re-analysis of the deposited data

How the results depend on the processing

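The number of the 40 genes that fell, 6 in the fit of all libraries, was 11 by DESeq2 (9.82% of all genes), 11 without a filter (6.72%) and 11 with the replicate block (8.15%). Over the fits that leave out 1 library it was between 3 and 24. The labels do not say whether same-numbered libraries are pairs. The deviations of same-numbered libraries from their group means correlated by 0.118, 0.075 and -0.0303. Those of differently numbered libraries lay between -0.187 and 0.135. The highest were 0.135 for knockout replicate 2 with WT replicate 3 and 0.119 for knockout replicate 3 with WT replicate 1. With 3 libraries per group these values cannot decide whether samples shared a batch, and the block is given as an alternative only. The median log2 fold change stayed below 0 in all 14 alternatives, and Ifitm1 and Ifitm2 kept their call in all of them. Ifitm3 missed the threshold in 1 of them, without knockout replicate 1, at -2.46, and its log2 fold change was between -4.57 and -2.36 over the fits of 5 libraries. Of the further interferon-stimulated genes 1 was higher with the B cell covariate, and between 4 and 12 were lower and 0 to 3 higher over the fits of 5 libraries. Of the signalling and sensing genes 2 were higher by DESeq2, by limma with either pseudocount and without a filter, and 0 with the B cell covariate (3 at an unadjusted p under 0.05). Over the fits of 5 libraries 0 to 3 were higher and 1 or 2 lower. Among the other single genes named, Ifi44 turned to 0.16 with the B cell covariate and lay between -1.55 and 0.065 over the fits of 5 libraries, above 0 without knockout replicate 1 or 3. The cause of these shifts was not tested.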
